A study of Mus musculus with 4 samples.

Results

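Lymphatic endothelial cells line the vessels that carry lymph, and here they were chosen from single-cell RNA profiles of mouse popliteal vessels by the transcripts they held. A member carried at least 1 unique molecular identifier (UMI, the tag that counts each captured RNA molecule once) in at least 3 of Prox1, Mmrn1, Flt4, Nts, Reln and Lyve1, and a UMI in at most 1 of 6 genes of other cells (Myh11, Cnn1, Pdgfra, Pi16, C1qa and Sox10). The kept cells had 500 or more gene UMIs from 300 or more genes, with no more than 15% of UMIs mitochondrial and no more than 20% from haemoglobin. By this rule 235 of 3435 kept cells were members. The levels of these 12 genes chose the members, so they are given below as a description, except where a marker was tested in members chosen without it.

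The mice were adult WT1xAi9 animals, in which Cre recombinase expressed from the Wt1 locus switches on the tdTomato reporter, so tdTomato RNA marks present or past Wt1 activity. All mice received Evans blue (4%) in the footpad to show the lymphatic vessels. PLV replicates 1 and 2 each held popliteal lymphatic vessels from a separate pool of 2 mice, digested for 30 min with collagenase I (1 mg/ml), Dispase II (1 mg/ml), DNase and Liberase. The third library, called the mixed library, held PLV cells and cells labelled BV (blood vessel) from 1 further pool of 2 mice, digested for 60 min without DNase or Liberase. Vessel, digestion, run and mice therefore all change together when whole libraries are compared, PLV against mixed, and cannot be told apart there. The hashtag features of the mixed library do not say which tag marks PLV or BV, so its members were not split by vessel. Pooling the mice leaves no value for a single animal.

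Prox1 is the transcription factor that sets and keeps lymphatic identity, and Flt4 (VEGFR3) is the receptor through which VEGF-C drives lymphatic growth. In the collecting vessels of the limb the endothelium forms valves, handles lipid and leukocytes in lymph, and signals to the muscle cells around it. Initial lymphatic capillaries are known for Lyve1, a hyaluronan receptor, and for Ccl21a, the chemokine that draws dendritic cells into lymph, whereas endothelium of collecting vessels is known for low Lyve1.

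PLV replicate 1 gave 128 members of 1919 kept cells (6.67%, 95% exact Clopper-Pearson interval 5.59 to 7.88%). PLV replicate 2 gave 69 of 519 (13.3%, 10.5 to 16.5%), and the mixed library gave 38 of 997 (3.81%, 2.71 to 5.19%). The 3 shares differed by more than their counting error, which is the only error these intervals cover, and no test of the shares between groups was made. Members held a median of 5055, 6666 and 9266 UMIs, in the order PLV replicate 1, PLV replicate 2, mixed library, which every set of 3 values below follows. They held 2000166, 911010 and 793669 UMIs in all. No barcode was shared between libraries.

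A few very deep cells carried much of these sums. Members made up 11 of 13, 3 of 4 and 5 of 6 kept cells over 50000 UMIs, and these members held 49.2%, 22.9% and 60.1% of all member UMIs. The deepest had 161458, 75167 and 135986 UMIs, and none of them was predicted to be a doublet. Of them, 8, 3 and 2 carried 0 exclusion genes. Whether more than 1 cell was caught with 1 barcode was not tested beyond that prediction, so calls that were lost without them are named beside each comparison between libraries and beside the Lyve1 comparison.

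The 6 markers had UMIs in the members of every library, at unequal levels between libraries for some of them (plot of marker levels by library). Lyve1 had only 3 UMIs in the mixed members, all in 1 cell. Levels are scaled counts (CPM), the UMIs of a gene per 1000000 UMIs of all genes in the summed cells. Prox1 (chr1:190118035-190170714, minus strand, GRCm38) stood at 791, 827 and 660 CPM and had a UMI in 97.7, 95.7 and 94.7% of members. Mmrn1 (chr6:60924976-60989378, plus strand), which encodes the secreted protein multimerin 1, stood at 1195, 1414 and 751 CPM. Flt4 (chr11:49609263-49652739, plus strand) stood at 376, 428 and 305 CPM. In the blood endothelial gate of the same libraries, the cells used for comparison below, Prox1 was at 3.38, 1.60 and 4.67 CPM and Flt4 at 31.1, 54.4 and 15.4 CPM.

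**Figure D1:**
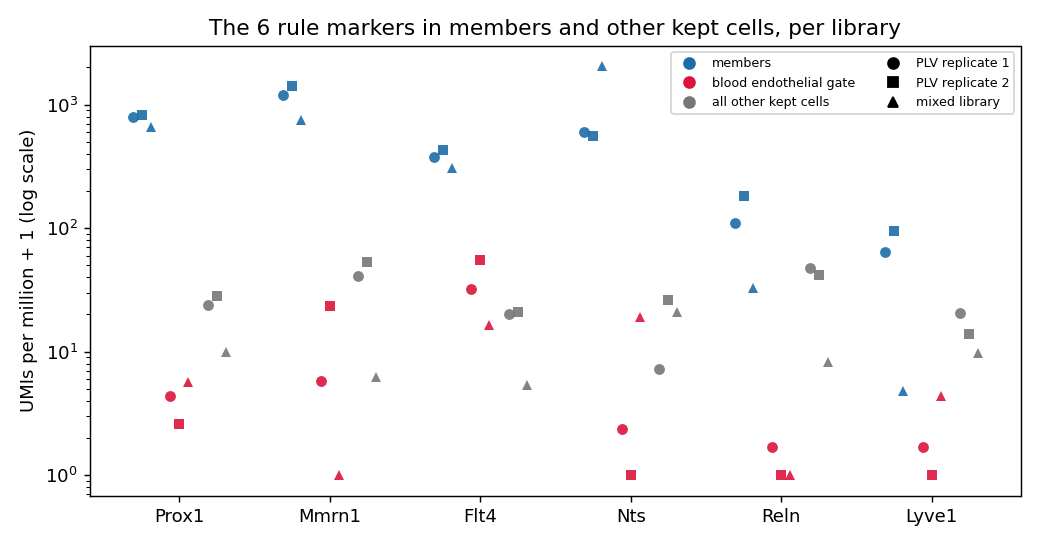
Level of each of the 6 lymphatic markers (UMIs per 1000000 UMIs, with 1 added, log axis) in the summed members, the blood endothelial gate and all other kept cells, with 1 point for each library. In members Prox1, Mmrn1 and Flt4 lie close together across libraries, Nts is higher in the mixed library and Reln and Lyve1 are lower there. The markers chose the cells, so the plot is a description.

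Nts (chr10:102481756-102490486, minus strand), the gene of the secreted peptide neurotensin, was the marker with the widest spread on the high side. It stood at 601, 557 and 2036 CPM and had a UMI in 54.7, 56.5 and 84.2% of members. Reln (chr5:21884454-22344702, minus strand), a secreted glycoprotein that lymphatic endothelium of collecting vessels is known to make, stood at 110, 181 and 31.5 CPM with a UMI in 40.6, 50.7 and 26.3% of members. Reln was no sign of lymphatic cells by itself, since cells of a Schwann cell gate held it at 498, 542 and 340 CPM. Lyve1 (chr7:110850607-110863239, minus strand) stood at 63.0, 93.3 and 3.78 CPM.

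To test a marker, members were chosen again with at least 3 of the other 5 markers, so that the marker tested did not choose them. Nts was then at 587 and 494 CPM in the PLV libraries (117 and 63 cells) and 2069 CPM in the mixed library (29 cells), a log2 difference (mixed minus PLV) of 2.13 (SE 0.35, edgeR adjusted p = 0.000196). The mixed library lay above both PLV libraries. Without the cell highest in Nts in each library the difference was 1.82 (edgeR adjusted p = 8.70e-05). Without cells over 50000 UMIs it was 1.88 (SE 0.22), but the edgeR adjusted p was then 0.361. The call was thus lost although the SE was smaller than in the main fit, and the reason was not tested. Reln went the other way, at 107 and 176 CPM against 28 CPM (log2 difference −2.10, SE 0.38, edgeR adjusted p = 0.000365, DESeq2 adjusted p = 0.0597).

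Lyve1 had 0 UMIs in the 37 mixed cells chosen without it. Against a floor of 3 UMIs (3.84 CPM), its summed level was at least 16.4-fold higher in PLV replicate 1 and at least 24.3-fold higher in PLV replicate 2 (edgeR adjusted p = 1.94e-15, DESeq2 adjusted p = 0.0335). That floor counts UMIs and not cells. Lyve1 was found in 6 of 128 and 3 of 69 PLV cells (4.69 and 4.35%). The mixed share of 0 of 37 cells has an interval of 0 to 9.49%, which covers both. A difference in the share of cells is therefore not shown. In PLV replicate 2, 79 of its 85 Lyve1 UMIs lay in 1 cell. Without the cell highest in Lyve1 in each library the PLV levels were 40.1 and 6.66 CPM (edgeR adjusted p = 0.0355). Near-empty droplets of the mixed library (under 50 UMIs each) held Lyve1 at 19.0 CPM, so free Lyve1 RNA was present there although the members showed none above it. Prox1 differed by −0.11 (edgeR adjusted p = 0.937), Flt4 by −0.29 (0.795) and Mmrn1 by −0.59 (0.615). The mixed library lay below both PLV libraries for each of them (Prox1 at 661 against 788 and 845 CPM, Flt4 at 280 against 354 and 430 CPM, Mmrn1 at 758 against 1182 and 1434 CPM), and none passed. Mmrn1 passed the threshold without cells over 50000 UMIs (−0.76, edgeR adjusted p = 0.0337).

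The sequence just upstream of Nts is shown because Nts was the only one of the 6 markers that passed as higher in the mixed library, where genes of AP-1 proteins (Jun, Jund and Atf3) were also higher, as described below. The 182 bases end just before the GENCODE gene start, which lies upstream of the RefSeq start (chr10:102490487-102490668, minus strand, GRCm38.p6, RefSeq), and the capitals mark the only match to the AP-1 motif TGANTCA, searched on both strands. The match lies 139 bases before the GENCODE start and 207 bases before the RefSeq start.
Nts: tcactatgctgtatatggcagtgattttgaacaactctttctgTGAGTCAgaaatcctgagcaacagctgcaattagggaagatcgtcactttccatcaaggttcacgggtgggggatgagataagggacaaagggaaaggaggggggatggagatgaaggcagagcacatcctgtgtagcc
The motif was found in the 250 bases before the RefSeq start in 2217 of 32851 RefSeq windows (6.75%). Among genes higher in mixed members it was found in 3 of 75 windows (4.00%), among genes lower there in 3 of 72 (4.17%), and among all genes tested in 366 of 7107 (5.15%). A match is a description of these letters and shows no binding.

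Genes outside the rule were checked against the lymphatic label. Clca3a1 (chr3:144729677-144760977, minus strand), a surface protein long used to mark lymphatic endothelium, led the genes ranked by the lowest ratio over the 3 libraries of members to other kept cells (with 20 CPM added to each level), at 872, 1044 and 985 CPM against 36.7, 56.7 and 21.2 CPM. The 10 leading genes also held the transcription factors Foxp2 and Tbx1, the secreted protein Lcn2, the tight-junction protein Cldn5, and Klhl4, Pkhd1l1, Apold1, Dtx1 and Pard6g. All 18 pan-endothelial genes were detected in all 3 libraries. Endothelial genes of the blood gate were present as well: Cdh5, the cadherin of endothelial junctions, stood at 652, 628 and 576 CPM, Emcn at 548, 506 and 484 CPM and Plvap at 800, 774 and 1079 CPM in members. Flt1 (17.5, 7.68 and 15.1 CPM), Sox17 (1.00, 1.10 and 0 CPM) and Aqp1 (26.0, 5.49 and 21.4 CPM) were low.

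Markers of other cells were low in members, with exceptions that came from single cells. The summed muscle list was at 28, 22 and 131 CPM in members and 11693, 11713 and 16269 CPM in the other kept cells. In the mixed library 43 of 47 Tagln UMIs, 28 of 33 Acta2 UMIs and 17 of 18 Rgs5 UMIs lay in 1 member. Pericyte genes summed to 9.0, 11 and 40.3 CPM, fibroblast genes to 238, 164 and 213 CPM, and macrophage genes to 19.5, 14.3 and 3.78 CPM, with C1qa at 0 in all 3. Schwann cell genes summed to 88.5, 18.7 and 2.52 CPM. Platelet and red cell genes summed to 452, 2964 and 112 CPM, and 1 member of PLV replicate 2 held 1523 of the 1558 Hbb-bs UMIs. Lymphocyte genes (5.50, 2.20 and 8.82 CPM) and keratinocyte and adipocyte genes (0.500, 0 and 0 CPM) were near 0.

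Cells just outside the rule, with 2 markers, numbered 36, 21 and 21 and had a median of 1605.5, 1127 and 4500 UMIs. Cells just inside, with 3 markers, numbered 56, 24 and 15 and had a median of 3061.5, 4603.5 and 2881 UMIs. Clca3a1 had a UMI in 27 of 36, 15 of 21 and 15 of 21 cells just outside and in 46 of 56, 20 of 24 and 13 of 15 just inside. In the PLV libraries the cells just outside were thus shallower than those just inside, while in the mixed library they were deeper, and most cells just outside carried Clca3a1.

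**Figure D2:**
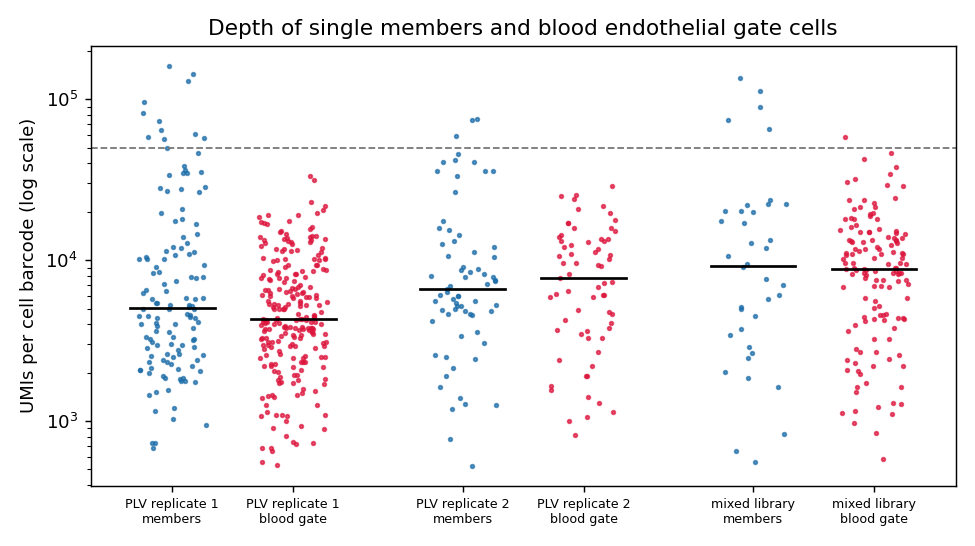
UMIs per cell (log axis) of members and of blood endothelial gate cells in each library, with 1 point a cell, a black line at the median and a dashed line at 50000 UMIs. Members reach above 50000 UMIs in all 3 libraries (11, 3 and 5 cells), while the medians of members and of blood endothelial cells lie in the same range.

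The reporter and its driver were examined next. Wt1 itself had 0 UMIs in the members of all 3 libraries, which allows up to 1.5, 3.29 and 3.78 CPM at 3 UMIs each. tdTomato had a UMI in 32.0, 40.6 and 65.8% of members, at 55.5, 82.3 and 157 CPM. It stood at 40.6, 51.2 and 116 CPM in the blood endothelial gate, at 33.1, 63.4 and 97.1 CPM in the other kept cells, and at 59.0 CPM in near-empty droplets of the mixed library. Members therefore lay less than 2-fold above the other cells of their library. The mixed members lay above the near-empty droplets of their own library. The mixed members lay above the PLV members (log2 difference 1.43, SE 0.28, edgeR adjusted p = 9.04e-05), but DESeq2 gave an adjusted p of 0.372.

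Lyve1 marked few members. It had a UMI in 6 of 128 (4.69%, 1.74 to 9.92%), 3 of 69 (4.35%, 0.906 to 12.2%) and 1 of 38 (2.63%, 0.0666 to 13.8%), and after thinning every cell to 1500 UMIs in 4 of 120, 3 of 63 and 0 of 35. The intervals overlap, and no test of this share between libraries was made. The share counts cells, whereas the Lyve1 level compared above counts UMIs, most of which lay in a few cells. Blood endothelial gate cells, which should lack the gene, held it at 0.677, 0 and 3.34 CPM, close to the 3.78 CPM of the mixed members. With at least 2 markers in place of 3, Lyve1 was found in 6 of 59 mixed cells (10.2%), since 5 of the 21 mixed cells just outside the rule carried it.

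The Lyve1-positive members of the PLV libraries all carried Ccl21a (plot of Ccl21a against Lyve1 by cell), but many Ccl21a-rich members had no Lyve1 UMI. Ccl21a (chr4:42772860-42773993, minus strand) has near-identical copies, so which copy the UMIs came from is uncertain. Of members with at least 20 Ccl21a UMIs, 6 of 14 in PLV replicate 1 and 2 of 6 in PLV replicate 2 had Lyve1. In PLV replicate 1 they had 153, 208, 114, 28, 27 and 60 Ccl21a UMIs beside 34, 41, 46, 1, 1 and 3 Lyve1 UMIs. In PLV replicate 2 they had 194, 5 and 573 Ccl21a UMIs beside 79, 2 and 4 Lyve1 UMIs. The single mixed member with Lyve1 had 3 Lyve1 UMIs, 0 Ccl21a UMIs, 1 Prox1 UMI and 1 Nts UMI of 12850, and 5 Flt1 and 17 Aqp1 UMIs. That cell thus carried more UMIs of blood endothelial genes than of lymphatic ones. It reached 3 markers only because Lyve1 was counted, and it is the whole mixed group with Lyve1 in the comparison below.

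**Figure D3:**
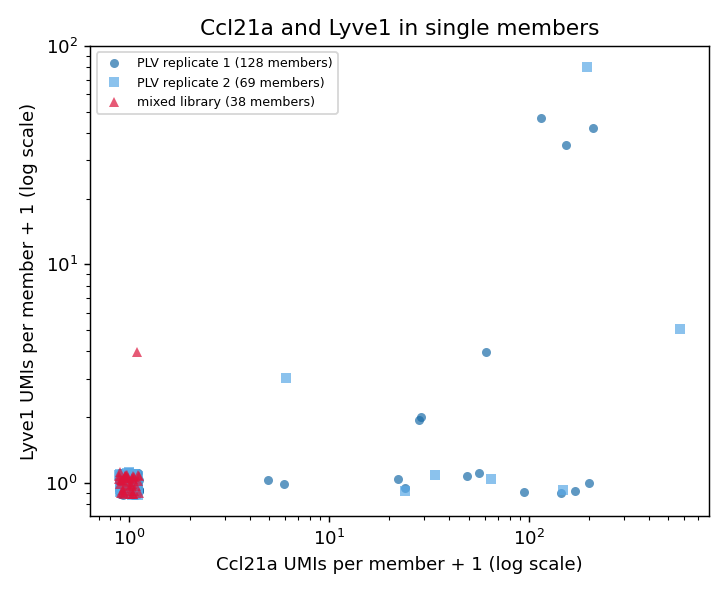
Ccl21a UMIs (horizontal) and Lyve1 UMIs (vertical) in each member, by library, with 1 added on log axes and points spread slightly so that they can be seen. The 9 PLV cells with Lyve1 all have Ccl21a, the Ccl21a cells outnumber the Lyve1 cells, and the mixed library has 1 Lyve1 cell and no Ccl21a cell.

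Summed over cells, members with Lyve1 held Ccl21a at 6930, 14332 and 0 CPM and members without it at 398, 313 and 0 CPM. The level was higher with Lyve1 in both PLV libraries, with no UMI on either side in the mixed one (log2 difference 4.75, SE 0.57, edgeR adjusted p = 2.38e-13). Of 5939 genes tested, 26 passed (0.438%), with 12 higher (0.202%) and 14 lower (0.236%). The lower genes included both red cell genes tested, Hba-a1 (−3.45) and Hbb-bs (−3.10), neither of them called in DESeq2. Most Hbb-bs UMIs lay in the single member of PLV replicate 2 named above, which had no Lyve1 UMI. Aqp1, a water channel of blood capillaries, was at 423, 55.7 and 1323 CPM with Lyve1 and 8.35, 2.33 and 0 CPM without (log2 difference 6.33, edgeR adjusted p = 7.69e-25), and in the mixed library all of it lay in the cell just described. Gucy1a1, a subunit of the nitric oxide receptor, was higher as well (1.93, edgeR adjusted p = 0.0250), as was Kbtbd11 (1.98, edgeR adjusted p = 0.0343).

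The genes that were lower in members with Lyve1 included Ackr4, the scavenging receptor for Ccl21a, at 0, 0 and 77.8 CPM against 160, 155 and 195 CPM (log2 difference −4.67, SE 0.96, edgeR adjusted p = 0.000610). Cmah, an enzyme of sialic acid synthesis, had 0 UMIs with Lyve1 against 145, 202 and 272 CPM without, at least 9.43-fold lower by a floor of 3 UMIs over the group. The chemokine Cxcl12 (−2.73), the growth factor Ptn (−2.56), the phosphatase Dusp2 (−2.46), the protease Adamts1 (−2.26), the prostaglandin transporter Slco2a1 (−2.08), the endocytic adaptor Dab2 (−1.97) and thrombomodulin, Thbd (−1.91), were also lower. Each was lower in all 3 libraries, but the mixed value with Lyve1 is that of the single cell described above.

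Of 22 immediate early and stress genes, 2 were lower with Lyve1 (Atf3, −2.20, and Egr1, −2.00) and none higher. Of 20 tested valve genes 0 passed in edgeR, with 1 under 0.05 before adjustment (282 of all 5939 genes were), and 0 in DESeq2. The comparison rests on few cells: 2 genes passed without PLV replicate 1, 2 without PLV replicate 2 and 105 without the mixed library and its single cell, and 4 passed in DESeq2. Of the 15 genes named here other than the red cell genes, 2 kept the call without PLV replicate 1 (Aqp1 and Dusp2), 1 without PLV replicate 2 (Aqp1) and 3 in DESeq2 (Aqp1, Ccl21a and Cmah). All 15 kept it without the mixed library. Without cells over 50000 UMIs 6 genes passed. Ccl21a (5.09, edgeR adjusted p = 0.000802), Dusp2, Adamts1 and Thbd kept the call then, and Aqp1 gave no value. Ackr4 (−4.14, edgeR adjusted p = 0.198), Cmah (edgeR adjusted p = 0.0508), Cxcl12 (−2.64, 0.376), Ptn (−2.63), Slco2a1 (−3.11), Dab2 (−2.81), Gucy1a1 (2.32), Kbtbd11 (2.70), Atf3 (−2.03) and Egr1 (−2.33) lost it. The log2 differences in these brackets were about as large as before or larger. With members thinned to 1500 UMIs, 7 of the 11 named genes with a value lost the call, Cmah and Dusp2 among them. Ccl21a and Egr1 lost it with 0 exclusion genes, and 6 genes lost it with at least 2 markers, Dusp2 and Thbd among them.

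Ccl21a was found in more PLV members than Lyve1 was. It had a UMI in 16 of 128 and 7 of 69 PLV members and in 0 of 38 mixed members, and 14 and 6 of the carriers had at least 20 UMIs. The carriers by definition held all of the library's member level of 676 and 1142 CPM. The 2392 PLV UMIs against 0 in the mixed members made the summed Ccl21a level at least 217-fold higher in the PLV members, by a floor of 3 UMIs. The blood endothelial gate held none. That bound counts UMIs, which lay in 16 and 7 cells, and a few carriers among the mixed members would lower it. Whether the share of carriers differed between libraries was not tested. Among the 16 carriers of PLV replicate 1 all carried Reln, as did 6 of 7 in PLV replicate 2, against 36 of 112 and 29 of 62 members without Ccl21a. Their Reln level was 368 against 45.0 CPM and 943 against 106 CPM, and their Mmrn1 level 1616 against 1090 CPM and 3675 against 1191 CPM. The carriers were also deeper, with a median of 9364 against 4960 and 8170 against 6194 UMIs, and the part of depth in the Reln share was not tested. In PLV replicate 2 none of the 28 tdTomato-positive members carried Ccl21a, but in PLV replicate 1 it was found in 7 of 41 with tdTomato and 9 of 87 without.

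Between PLV members with and without Ccl21a, 8 of 7384 genes passed (0.108%), 4 higher (0.0542%) and 4 lower (0.0542%); this comparison was added after the data were seen. Ackr4 (chr9:104084157-104126933, minus strand) was at 2.49 and 0 CPM in carriers and 191 and 160 CPM in the other members (log2 difference −6.33, SE 0.58, edgeR adjusted p = 0.00501). Carriers held 1 Ackr4 UMI in PLV replicate 1 and 0 in PLV replicate 2, against 305 and 133 in the other members. Fabp5, a fatty acid binding protein, was at 4.98 and 0 against 134 and 143 CPM (−4.94, edgeR adjusted p = 0.0169). Ptn (74.7 and 98.0 against 460 and 334 CPM, −2.30) and the peptide-processing enzyme Cpe (127 and 61.3 against 483 and 380 CPM, −2.07) were lower too.

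Carriers were higher in Pcsk6, a proprotein convertase (162 and 368 against 21.3 and 51.8 CPM, log2 difference 2.90, SE 0.27, edgeR adjusted p = 0.00501), and in Stmn2, a microtubule regulator best known from neurons (187 and 306 against 28.8 and 45.8 CPM, 2.74, edgeR adjusted p = 0.00580). Aqp1 was higher at 92.1 and 36.8 against 9.38 and 2.41 CPM (3.40). Piezo2, a stretch-gated ion channel, had 25 UMIs in carriers and 0 in the others, at least 41.9-fold higher. Its UMIs came from 6 cells of PLV replicate 1 and from 1 cell of PLV replicate 2, which held 11. Ptn, Cpe, Aqp1 and Piezo2 lost the call among members with 1000 UMIs or more, and Ptn and Cpe also with members thinned to 1500 UMIs. Over the alternatives the log2 difference stayed at −2.41 to −1.59 for Ptn, −2.33 to −1.96 for Cpe and 2.92 to 3.55 for Aqp1. Ackr4, Fabp5, Pcsk6 and Stmn2 passed in the same direction in the alternatives that tested them, and with members thinned to 1500 UMIs Pcsk6 passed and the other 3 were too low to be tested. Of 21 valve genes 0 passed in edgeR, with 1 under 0.05 before adjustment (403 of all 7384 genes were), and 0 in DESeq2.

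The members of the mixed library were compared with those of the PLV libraries, where 192 of 8915 genes passed (2.15%), 96 higher and 96 lower in the mixed library (1.08% each). The comparison has 1 residual degree of freedom, and the lone mixed library is assumed to vary like the PLV pair. Its p-values therefore lean on a spread that edgeR shares over genes. Sex-limited genes differed with the libraries: Xist, which silences the second X chromosome of females, was at 360, 516 and 0 CPM (at least 108-fold higher in PLV members). The Y-linked genes Ddx3y and Eif2s3y were at 0, 0 and 105 CPM and at 0, 0 and 40.3 CPM (at least 101-fold and 39.1-fold higher in mixed members). Transcripts that tell female from male mice thus differed along with vessel, digestion and run.

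A part of the heat shock and AP-1 genes was higher in the mixed members. Of 22 immediate early and stress genes, 8 were higher (Hspa1a, Hspa1b, Dnajb1, Hspb1, Hsph1, Jund, Atf3 and Jun), 0 lower and 21 had a log2 difference above 0, with a median of 0.96 against −0.03 over all genes tested. The chaperone Hspa1a (chr17:34969190-34972156, minus strand), whose reads can be shared with its near-identical neighbour Hspa1b, was at 24.0, 29.6 and 223 CPM (log2 difference 3.28, SE 0.29, edgeR adjusted p = 1.40e-26). Hspa1b was at 125, 123 and 417 CPM (1.94), the co-chaperone Dnajb1 at 121, 105 and 447 CPM (2.17) and the small heat shock protein Hspb1 at 261, 195 and 597 CPM (1.57). In each of these the mixed library stood apart from 2 PLV libraries that lay close together.

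Of the genes of AP-1 proteins, 3 passed. Jund was at 1795, 1420 and 5076 CPM (1.85, edgeR adjusted p = 0.000670), Atf3 at 624, 479 and 1583 CPM (1.71, edgeR adjusted p = 0.000212) and Jun (chr4:95049034-95052222, minus strand) at 2475, 2400 and 6354 CPM (1.58, edgeR adjusted p = 0.0125). Fos (1.10, edgeR adjusted p = 0.181), Fosb (0.85, 0.278), Junb (0.99, 0.226) and the chaperone Hsp90aa1 (0.44, 0.611) did not pass. With 0 exclusion genes Hspa1b, Jund, Atf3 and Jun lost the call, and Hsph1 lost it in DESeq2. Without cells over 50000 UMIs, 5 of the 22 genes passed and their median was 0.38. Hspa1a was then at 1.03 (edgeR adjusted p = 0.231), Jun at 0.28 (0.462), Atf3 at 0.72 (0.0547), Jund at 1.00 (1.38e-05) and Dnajb1 at 1.28 (0.00150). With each member thinned to 1500 UMIs, 2 of 20 passed and the median was 0.36. Near-empty droplets of the mixed library held Jun at 814 CPM and Hspa1b at 237 CPM, and the part of free RNA and of the longer digestion in these values was not tested.

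**Figure D4:**
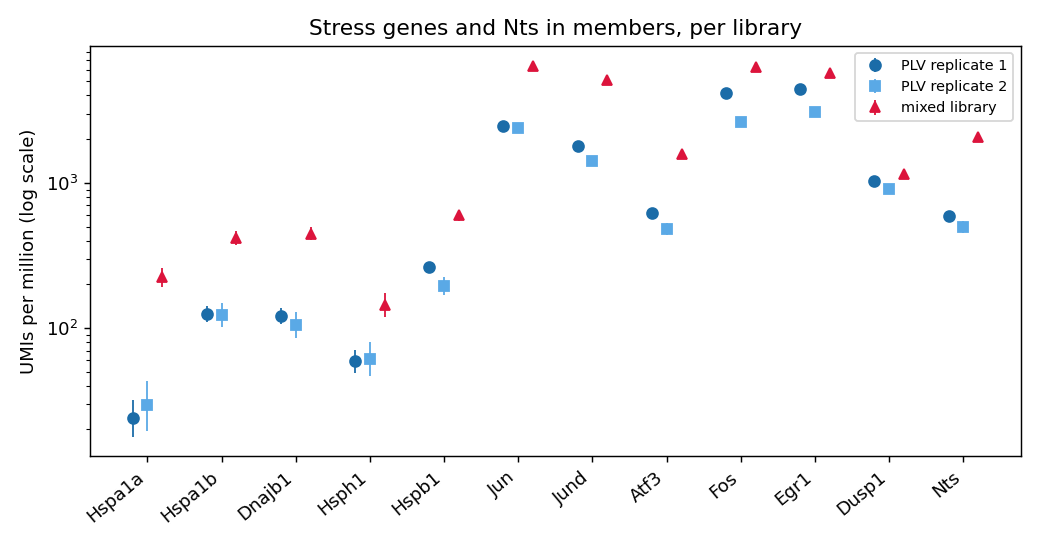
Levels (CPM, log axis) of 11 stress genes in the summed members of each library, and of Nts in members chosen without it, with exact 95% Poisson intervals of counting error. For the heat shock genes, Jun, Jund, Atf3 and Nts the mixed library lies above both PLV libraries, for example Hspa1a at 223 against 24.0 and 29.6 CPM.

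Outside the stress genes, Angptl4, a secreted inhibitor of lipoprotein lipase, was at 20.5, 20.9 and 126 CPM (log2 difference 2.80, SE 0.30, edgeR adjusted p = 1.03e-17), and it remained at 2.36 (edgeR adjusted p = 9.17e-06) without cells over 50000 UMIs. Fabp5 was at 108, 131 and 282 CPM (1.45), so that 2 of 16 lipid genes were higher and 0 lower. Fabp5 lost the call in DESeq2 (adjusted p = 0.0950), with 0 exclusion genes and with members thinned to 1500 UMIs (log2 difference 1.66, edgeR adjusted p = 0.179). The basement membrane collagens Col4a1 (44.0, 56.0 and 107 CPM, 1.33) and Col4a2 (31.5, 34.0 and 68.0 CPM, 1.26) and the matrix protein Sparc (282, 369 and 706 CPM, 1.32) were the 3 of 21 matrix genes that were higher. Markers of muscle cells (2 of 3 tested, median 2.87), fibroblasts (2 of 4, 1.85) and the 1 pericyte gene tested (5.84) were higher in the mixed members too. Their part in the matrix genes was not tested. DESeq2 called none of the 3 matrix genes (adjusted p = 0.670, 0.998 and 0.0805), and edgeR called none of them with 0 exclusion genes or with at least 4 markers. Without cells over 50000 UMIs Col4a1 (1.32, edgeR adjusted p = 0.00613) and Sparc (1.5, 1.04e-07) passed and Col4a2 did not (0.98, 0.179). The calcium channel Orai1 (47.0, 36.2 and 78.1 CPM, 1.06), the interferon-induced Isg15 (25, 16.5 and 65.5 CPM, 1.78), the polyubiquitin Ubb (1.60), the scaffold Akap12 (1.81), Taf7 (1.5) and the protease inhibitor Serpina3n (1.95) were also higher. Without cells over 50000 UMIs Orai1 (1.04, edgeR adjusted p = 0.113) and Taf7 (1.02, 0.0965) no longer passed, although the Orai1 difference hardly moved. In DESeq2 the adjusted p of Orai1 and Taf7 was 0.998 and 0.357, and Akap12 did not pass there either (0.0989). Orai1, Taf7 and Ubb lost the call with 0 exclusion genes, and Serpina3n and Ubb lost it with at least 4 markers.

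Genes that were lower in the mixed members included B2m, the light chain of class I MHC, at 551, 476 and 160 CPM (−1.49, edgeR adjusted p = 0.00479) and Cldn11, a claudin found at lymphatic valves, at 111, 88.9 and 40.3 CPM (−1.13, edgeR adjusted p = 0.0362, DESeq2 adjusted p = 0.998). With members thinned to 1500 UMIs the B2m difference was −0.60 (edgeR adjusted p = 0.558), and both genes lost the call with 0 exclusion genes and with at least 4 markers. In the blood endothelial gate, described below, B2m was also lower in the mixed library than in both PLV libraries. The phosphatase-like Ubash3a was at 83.0, 175 and 3.78 CPM (−4.81), and the class I gene H2-Q6 was also lower (−4.07), but not past the threshold without cells over 50000 UMIs (−2.95, edgeR adjusted p = 0.0665) or with 0 exclusion genes. Ubash3a lost the call with members thinned to 1500 UMIs (edgeR adjusted p = 0.222), although its log2 difference was then −6.58. Nabp1 and Neo1 had 0 UMIs in the mixed members and were at least 8.91-fold and 5.00-fold higher in the PLV members. Neo1 lost the call with 0 exclusion genes and with at least 2 or at least 4 markers. Apart from the 6 markers, 1 of 18 lymphatic endothelial genes (Ccl21a) and 1 of 22 valve genes (Cldn11) passed. In these lists 3 of 18 and 7 of 22 genes had a log2 difference above 0. Their medians were −0.29 and −0.38, against −0.03 over all genes tested, and the lists were not tested as sets. Muscle, pericyte and fibroblast genes passed as higher in the mixed members (Tagln, Acta2, Rgs5, Col1a1 and Col3a1 among them). Schwann cell and red cell genes passed as lower there (Mbp and 3 haemoglobin genes among them). Most UMIs of Tagln, Acta2, Rgs5 and Hbb-bs lay in single cells, as given above. Without predicted doublets Mbp, Hba-a2 and Hbb-bs lost the call, and with at least 4 markers Mbp and the 3 haemoglobin genes lost it. Mbp also lost it with at least 2 markers, where its sign turned, and Col1a1 lost it at 1000 UMIs or more. In DESeq2 the haemoglobin genes did not pass and the other 6 got no adjusted p.

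The other endothelial cells of the same libraries show what sets the members apart. The blood endothelial gate took cells with a UMI in at least 3 of Flt1, Emcn, Plvap, Cdh5, Sox17 and Aqp1, at most 1 lymphatic marker and at most 1 exclusion gene, and held 236, 67 and 136 cells with a median of 4339.5, 7707 and 8867 UMIs. Both gates were cut from markers in the same cells, so a call says only that a gene outside the gates differed between the gated cells. Of 9179 genes, 2528 passed (27.5%), 1222 higher (13.3%) and 1306 lower (14.2%) in members. Markers of muscle cells (5 of 5 tested lower in members, median −4.77), pericytes (5 of 5, −6.40) and fibroblasts (3 of 4) were also lower than in the blood gate. Rgs5, a pericyte gene, stood at 1495, 484 and 614 CPM in the blood gates, and Tagln, a muscle gene, at 564, 625 and 700 CPM. Their part in the genes given below as lower in members was not tested.

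Of 17 further lymphatic endothelial genes that were tested, 13 were higher and 1 lower, with a median log2 difference of 2.96 against −0.01 over all genes. Pdpn, the membrane glycoprotein that separates blood from lymph vessels through platelets, was at 71.0, 88.9 and 84.4 CPM against 0 in all 3 blood gates, at least 94.0-fold higher. The transcription factors Tbx1 (272, 263 and 223 against 7.44, 3.20 and 2.00 CPM, 5.79) and Maf (636, 728 and 423 against 18.9, 27.2 and 8.68 CPM, 5.10) were higher in every library. Ackr4 (6.55), Scn3b (5.80), the copper carrier Cp (4.15), Fgl2 (3.42), Klhl4 (3.32) and the scavenger receptor Stab1 (2.96) were higher as well. Stab2 had 1 UMI and Marco 0 in all members.

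Valve genes were the next group, with 18 of 22 higher and 2 lower and a median of 1.52. Foxc2, the transcription factor needed for lymphatic valves, was at 142, 101 and 94.5 CPM against 3.38, 0 and 4.01 CPM (log2 difference 5.20, SE 0.30, edgeR adjusted p = 6.51e-09). Foxp2 was at 638, 517 and 384 CPM against 5.41, 4.80 and 0 CPM (7.35, SE 0.32, edgeR adjusted p = 5.90e-10). The guidance ligand Sema3a (93.0, 132 and 127 against 1.35, 0 and 0.668 CPM, 6.92), Cldn11 (5.26), the polarity gene Celsr1 (2.64), Nfatc1 (2.20), fibronectin, Fn1 (2.16), its receptor subunit Itga9 (2.06), Efnb2 (1.82) and Gata2 (1.33) were higher in members of all 3 libraries. The laminin chain Lama5 (−1.80) and the semaphorin co-receptor Plxna1 (−1.25) were lower. Plxna1 lost the call in DESeq2 (adjusted p = 0.176), without cells over 50000 UMIs and without PLV replicate 1.

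**Figure D5:**
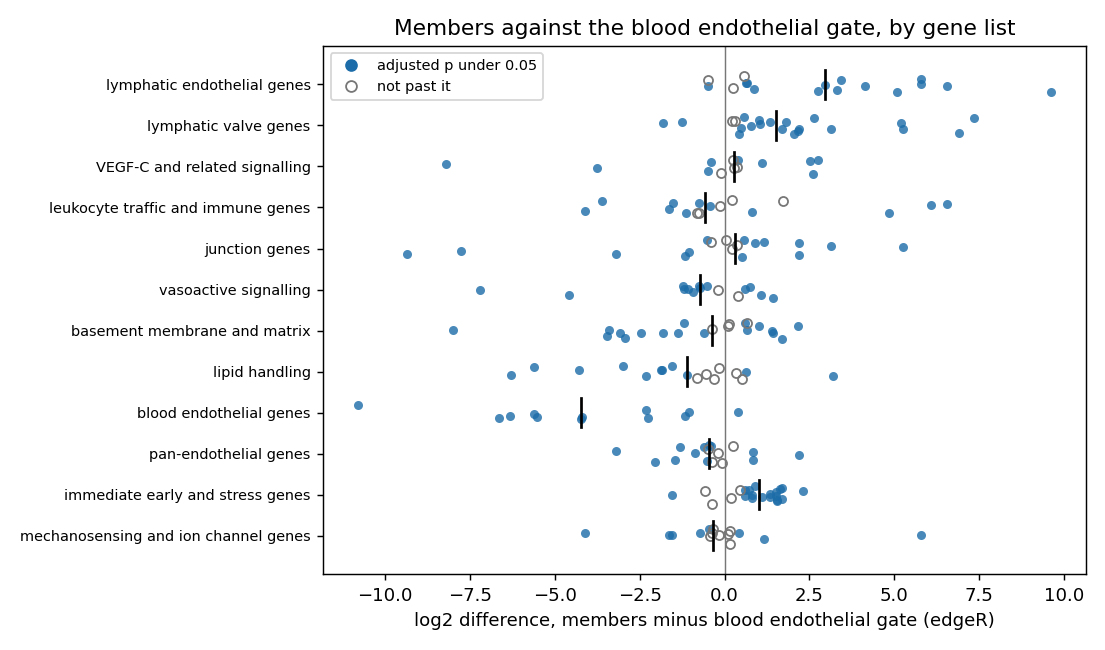
Log2 difference of each tested gene between members and the blood endothelial gate, by gene list, with a black line at the list's median, filled points for genes that passed and open points for the rest. The medians of the lymphatic (2.96) and valve (1.52) lists lie above 0 and that of the blood endothelial list (−4.22) lies below it, and each list plotted holds genes on both sides of 0.

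Growth factor and chemokine genes divided between the gates. Nrp1, co-receptor for VEGF-A, was at 1.5, 0 and 3.78 CPM in members against 488, 620 and 437 CPM (log2 difference −8.22, SE 0.33, edgeR adjusted p = 3.04e-10). Nrp2, the co-receptor for VEGF-C, was at 183, 201 and 139 CPM against 223, 277 and 230 CPM (−0.50, edgeR adjusted p = 0.0165). That call was lost in DESeq2 (adjusted p = 0.123), with no replicate block, without PLV replicate 2, without the mixed library, without cells over 50000 UMIs and against all other kept cells. The ligand Vegfc was low in members (1.5, 1.10 and 2.52 against 33.8, 14.4 and 10.7 CPM, −3.75), while Vegfb (2.53), the peptide Adm (154, 82.3 and 152 against 24.4, 36.8 and 6.01 CPM, 2.76) and its decoy receptor Ackr3 (2.60) were higher. Of 13 tested genes of VEGF-C, angiopoietin and adrenomedullin signalling, 5 were higher and 4 lower.

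Among leukocyte genes 4 of 16 were higher and 7 lower. Il7, the lymphocyte survival factor, was at 83.0, 90.0 and 80.6 CPM against 0.677, 3.20 and 0.668 CPM (6.08, edgeR adjusted p = 8.41e-09). Cxcl12 went the other way, at 197, 180 and 178 CPM against 2145, 3687 and 3991 CPM (−4.10, edgeR adjusted p = 1.99e-09). The class I genes B2m (551, 476 and 160 against 1304, 1282 and 566 CPM, −1.5) and H2-K1 (−1.12) and the leukocyte adhesion gene Selp (−5.51) were lower in members.

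Junction genes differed by member of the family, with 8 of 18 higher and 6 lower. Cldn5 was at 2065, 1895 and 3057 CPM in members against 482, 441 and 552 CPM (2.20, edgeR adjusted p = 3.13e-08). Jam2 was at 1.5, 0 and 5.04 CPM against 386, 536 and 439 CPM (−7.77), and Esam was lower too (−3.20). The arterial connexin Gja5 had 0 UMIs in members, at least 67.9-fold lower. Of 15 vasoactive genes 4 were higher and 9 lower: Nos3, the endothelial nitric oxide synthase, stood at 241, 293 and 203 CPM against 132, 110 and 94.8 CPM (1.09, edgeR adjusted p = 3.91e-05). Pde5a, which degrades cyclic GMP, stood at 0.500, 1.10 and 3.78 CPM against 37.2, 19.2 and 48.1 CPM (−4.57), and the histamine receptor Hrh1 had 0 UMIs in members (at least 17.1-fold lower). All 5 muscle and 5 pericyte markers tested moved in the same direction as Pde5a.

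Matrix genes differed in both directions, and lipid genes were mostly lower in members. The muscle, pericyte and fibroblast markers given above, and the 1 keratinocyte or adipocyte gene tested (−7.07), were lower in members as well. Of 21 matrix genes 7 were higher and 10 lower: Col4a1 was at 44.0, 56.0 and 107 CPM against 540, 667 and 831 CPM (−3.39), Col4a2 (−3.47) and Sparc (−2.92) were lower, and Sparcl1 was at 4.50, 1.10 and 16.4 CPM against 1815, 1949 and 1204 CPM (−8.01). Lamb1 (1.41) and Timp2 (1.40) were higher. Of 17 lipid genes 2 were higher and 9 lower. The fatty acid importer Cd36 was at 27.0, 119 and 40.3 CPM against 2366, 3394 and 1872 CPM (−5.60), the HDL receptor Scarb1 was at 11, 18.7 and 10.1 CPM against 907, 1295 and 819 CPM (−6.29), and Fabp4 (−2.98) and Gpihbp1 (−2.32) were lower. Vldlr was higher, at 30.0, 38.4 and 31.5 CPM against 4.06, 4.80 and 2.00 CPM (3.19).

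Of 12 further blood endothelial genes 11 were lower and 1 higher, among them Ly6c1 (−10.80, with 1.5, 0 and 0 CPM in members), Cd34 (−6.66), Rgcc (−6.33) and Tcf15 (−4.30). Aplnr, Aqp7, Rsad2 and Papss2 had 0 UMIs in members and were at least 344-fold, 153-fold, 95.3-fold and 91.6-fold lower. Outside the lists, Nrxn2 (7.06), Dkk3 (7.0), Duox2 (6.85), Sema3d (6.75), Lcn2 (341, 323 and 697 against 4.74, 4.80 and 4.01 CPM, 6.68) and the incretin receptor Glp1r (6.52) were higher in members. Among channel genes 3 of 15 were higher and 5 lower.

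Stress genes were higher in members than in blood endothelial cells of the same libraries, with 17 of 22 higher, 1 lower and a median of 1.01. Egr1 was at 4460, 3088 and 5690 CPM against 1721, 1194 and 1053 CPM (1.70, edgeR adjusted p = 8.71e-06), and Fos (1.52), Jun (1.55) and Atf3 (2.31) were higher. Hspb1 was lower (261, 195 and 597 against 817, 812 and 1120 CPM, −1.54). Whether the excess over PLV libraries in the mixed library was of another size in members than in blood endothelial cells was tested as an interaction. Of the 22 genes 0 passed in edgeR, with 13 under 0.05 before adjustment, and 0 in DESeq2, although 21 had a value above 0 and their median was 0.86. Over all 9179 genes tested, 537 were under 0.05 before adjustment and the median was −0.01. For Jun the blood gate stood at 993, 1253 and 1158 CPM and the members at 2475, 2400 and 6354 CPM.

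Of 9179 genes 8 passed the interaction test (0.0872%), 3 higher (0.0327%) and 5 lower (0.0545%). Fndc1, Aebp1, Tmem158 and Fam174b were at similar levels in members of all 3 libraries but higher in the blood gate of the mixed library than in those of the PLV libraries. Fndc1, for example, was at 183, 234 and 156 CPM in members against 5.41, 3.20 and 67.4 CPM in the blood gates. Its interaction of −4.11 (SE 0.41) had an edgeR adjusted p of 0.00196 and passed in DESeq2, while Aebp1, Tmem158, Fam174b, Tagln, Acta2 and Rgs5 did not. The 3 higher genes, Tagln, Acta2 and Rgs5, rest on a single mixed member that held most of their UMIs.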

How the data were processed

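The authors deposited raw UMI counts for each barcode and gene, from 10x 3' libraries: filtered matrices for the PLV libraries (Cell Ranger 6.1.2) and all 896360 barcodes for the mixed library (Cell Ranger 4), per the submitters' processing notes, which name GRCm38. Hashtag counts were not used. Gene positions are from GENCODE vM21 and the promoter sequence from RefSeq.

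UMIs were summed per library over members, blood endothelial gate cells or subsets and compared by the quasi-likelihood test of edgeR 4.0.16 (TMM factors, filterByExpr, Benjamini-Hochberg adjustment over all genes tested, threshold 0.05; R 4.3.3). Library was a block in comparisons within libraries. Residual degrees of freedom were 1 (PLV against mixed, interaction, Ccl21a) or 2 (Lyve1, blood endothelial gate). The 12 rule genes, and the genes of the other gate or split, got no test there. The pools of mice are the units of the p-values: all 3 pools in the Lyve1 and blood endothelial gate comparisons, and the 2 PLV pools in the others. With so few pools edgeR borrows most of the spread from a trend shared over genes. A very small p-value is therefore no measure of a gene's own spread between pools. DESeq2 1.42.0 was the alternative tool. Doublets were predicted with scrublet in scanpy 1.11.5 (8, 3 and 3 cells, of them 1, 1 and 0 members) and kept. CPM intervals are exact Poisson, shares exact Clopper-Pearson, and both cover counting error only. The fits were also run on simulated data, whose outcome is not given here and backs no value above.

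The members and lists were chosen with earlier results of these data known. The Ccl21a comparison, the single-marker tests, the alternative without cells over 50000 UMIs and the members thinned to 1500 UMIs in the PLV against mixed comparison were added after the data were seen. Named genes were list genes past the threshold and, of the others past it, the 10 largest changes in each direction with at least 50 UMIs and the same direction in every library, apart from predicted, mitochondrial, ribosomal and haemoglobin genes; only some of these are printed, and a few genes are not reported here.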

Additional observations from a re-analysis of the deposited data

Results flagged for a closer look

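The difference between the mixed and the PLV libraries was of unlike size in members and in blood endothelial gate cells for 8 genes, by edgeR's test of the interaction, and 7 of them are given here. The values are log2 differences (mixed minus PLV) in members minus those in the blood endothelial gate. For the secreted Fndc1 the value was −4.11 (adjusted p = 0.00196, DESeq2 adjusted p = 0.00938), with 183, 234 and 156 CPM in members and 5.41, 3.20 and 67.4 CPM in the blood gate. For Fam174b it was −3.44 (101, 90.0 and 112 against 4.06, 1.60 and 43.4 CPM), for Aebp1 −2.50 (358, 395 and 341 against 19.6, 19.2 and 105 CPM) and for Tmem158 −2.36 (405, 311 and 408 against 31.1, 12.8 and 138 CPM). None of these 3 passed in DESeq2 (adjusted p = 0.980, 0.163 and 0.334), and Fam174b and Tmem158 lost the call at 10% mitochondrial UMIs or less.

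Contractile and pericyte genes had the opposite sign: Tagln at 2.53 (7.5, 11 and 59.2 against 564, 625 and 700 CPM), Acta2 at 4.59 (7.5, 4.39 and 41.6 against 432, 36.8 and 76.8 CPM) and Rgs5 at 6.58 (0, 1.10 and 22.7 against 1495, 484 and 614 CPM). In the mixed library 1 member held most of the UMIs of these 3 genes, so their values rest on that cell. They did not pass in DESeq2 (adjusted p = 0.155, 1.00 and 0.334), with 0 exclusion genes or with at least 4 markers. Tagln and Rgs5 also lost the call at 10% mitochondrial UMIs or less.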

How the results depend on the processing

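Counts of genes past the threshold moved with the choice of cells and tool. For PLV against mixed members (192) it was 34 with 0 exclusion genes, 39 with at least 4 markers, 31 with members thinned to 1500 UMIs, 14 in DESeq2 and 272 without cells over 50000 UMIs, where 107 of the 192 passed. For Lyve1 (26) it was 90 with 0 exclusion genes, 86 with at least 4 markers and 48 with at least 2 markers. It was 27 with members thinned to 1500 UMIs, where 7 of the 26 passed. Without cells over 50000 UMIs it was 6, in DESeq2 4, and 2 to 105 when 1 library was left out. For the blood endothelial gate (2528) it was 1611 in DESeq2, 4332 against all other kept cells and 2012 to 2477 with 1 library left out. For the interaction (8) it was 61 with 0 exclusion genes, 24 and 28 with at least 2 and 4 markers, 4 at 10% mitochondrial UMIs or less, 36 without cells over 50000 UMIs, 31 without predicted doublets, 41 with DESeq2 size factors, 70 with no filter on low counts (26 higher and 44 lower) and 2 in DESeq2. For Ccl21a (8) these were 72, 35, 41, 12, 93, 17, 8, 77 (28 higher and 49 lower) and 6, with 4 at 1000 UMIs or more, 71 with at least 20 Ccl21a UMIs and 20 with thinned members.

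Signs turned for Mbp (0.43) with at least 2 markers, for Rgs5 (−1.43) and Tagln (−0.89) in the interaction with 0 exclusion genes, and for Tagln (−0.88) with at least 4 markers. Against all other kept cells they turned for Fn1 (−1.05), Nrp2 (0.28), Timp2 (−0.32) and Vldlr (−0.078). Prox1 moved from −0.11 to 0.0100 without the highest cell, with no call in either. The causes were not tested. Of the named genes called, 3 of 39 for PLV against mixed, 1 of 15 for Lyve1, 63 of 70 against the blood gate, 1 of 7 for the interaction and 4 of 8 for Ccl21a held in every alternative that gave them a value. To hold meant the same direction and call or, where no adjusted p was given, a log2 difference within 1 SE of the main value. Leaving a PLV library out of PLV against mixed gave no adjusted p, so a gene that moved there did not lose a call.

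Member shares were 3.75, 8.67 and 2.31% with at least 4 markers and 8.55, 17.3 and 5.92% with at least 2. The mixed Lyve1 share was 0 with at least 4 markers, with 0 exclusion genes and after thinning, and the Lyve1 fits then used the PLV libraries alone. No paired analysis was possible because the PLV against mixed comparison has 1 mixed library. With no replicate block for library, 26, 1850 and 18 genes passed for Lyve1, the blood gate and Ccl21a, where 26, 2528 and 8 did with it. Leaving 1 PLV library out of PLV against mixed gives values without a test. With 38 mixed members, 1 of them with Lyve1, cell number limits the mixed values.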
